A study of Oryza sativa with 40 samples.

Results

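NAC proteins form a large family of transcription factors that is found only in plants. They share a conserved DNA-binding domain at the N-terminus, the NAC domain, while the C-terminal part is variable and activates or represses transcription. In rice, several members are induced by drought, salt, cold and the hormone abscisic acid, and others take part in leaf senescence, defence and organ development.

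The NAC genes described here were chosen by name: every gene whose symbol or RefSeq synonym is OsNAC or ONAC followed by a number. RefSeq gave 10 such genes. Of these, 8 had at least 1 probe set of their own, 13 probe sets in all, out of 17905 named genes and 57194 rice probe sets on the array. OsNAC8 was represented only by 2 probe sets that it shares with another gene, and ONAC077 had no probe set in the annotation, so neither was analysed here. The 8 genes were OsNAC6 (also ONAC048), OsNAC5 (ONAC071), OsNAC3 (ONAC067), ONAC045, OsNAC4 (ONAC068), OsNAC2 (ONAC004), ONAC010 and OsNAC7 (ONAC076). RefSeq places OsNAC6 and OsNAC4 on chromosome 1, OsNAC2 on chromosome 4, OsNAC7 on chromosome 6, OsNAC3 and ONAC010 on chromosome 7, and OsNAC5 and ONAC045 on chromosome 11.

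The study followed leaf RNA of the japonica cultivar Nipponbare through a day, a night and the next day, on 40 Affymetrix rice arrays. Seedling leaves came from 17-day-old plants kept in a greenhouse with days of 28 °C and nights of 25 °C. Flag leaves, the last leaves below the panicle, came from plants aged 3 months that had grown in the field and were then entrained in a greenhouse with days of 32 °C and nights of 30 °C. Both sets had 12 h of light, from 8 h to 20 h, and were sampled every 4 h at 10 time points from 8 h to 44 h, with 2 biological replicates at each. Hours are counted from the midnight before the first sample, so 20 h and 44 h are both dusk, and 8 h and 32 h are both dawn. Tissue, plant age, growth site and temperature differ together between the sets and cannot be told apart. Nothing read here says how many plants a replicate pooled, so the spread between replicates is that of samples labelled as biological replicates.

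What was measured is the hybridisation signal of each probe set, a set of short probes to 1 transcript, scaled by the authors to the same target on every array. Mean signals ranged from 695.9 to 733 over the seedling arrays and from 753 to 877 over the flag leaf arrays, with medians of 50.5 to 68.2 and 48.8 to 64.4. Of the leaf genes read, RBCS, CAB2R, RCAA1 and OsPSAG had high median signals in both tissues. That of RBCS, which encodes the small subunit of Rubisco, was 21628 in seedling and 34341 in flag leaves. PORA, also read as a leaf gene, had a median of 4515 in seedling but only 90.7 in flag leaves. The seed storage gene GLUA1 had a median of 3.15 and 10.9, with a highest array of 37.6 and 254.9. Precision is limited by how many arrays there are, and in such bulk samples fewer cells that express a gene and less RNA per cell cannot be told apart. In seedling leaves the ratio of the 3′ to the 5′ signal of the actin control, a measure of RNA length, was 4.36 to 6.43 in replicate 1 and 3.34 to 4.28 in replicate 2, so the replicates did not overlap. In flag leaves these ratios overlapped, at 3.53 to 5.93 and 3.44 to 6.58.

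Each gene was read from its brightest probe set. A mean signal of at least 100 in a tissue was required for a test, which left 6 NAC genes in seedling leaves (OsNAC6, OsNAC5, OsNAC3, ONAC045, OsNAC4, OsNAC2) and 5 in flag leaves (OsNAC6, OsNAC5, OsNAC3, OsNAC4, ONAC010). OsNAC7 was dim everywhere. Its probe sets had means of 14.5 and 13.1 in seedling and 19.0 and 20.2 in flag leaves, no array exceeded 67.3, and neither was tested.

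**Figure D1:**
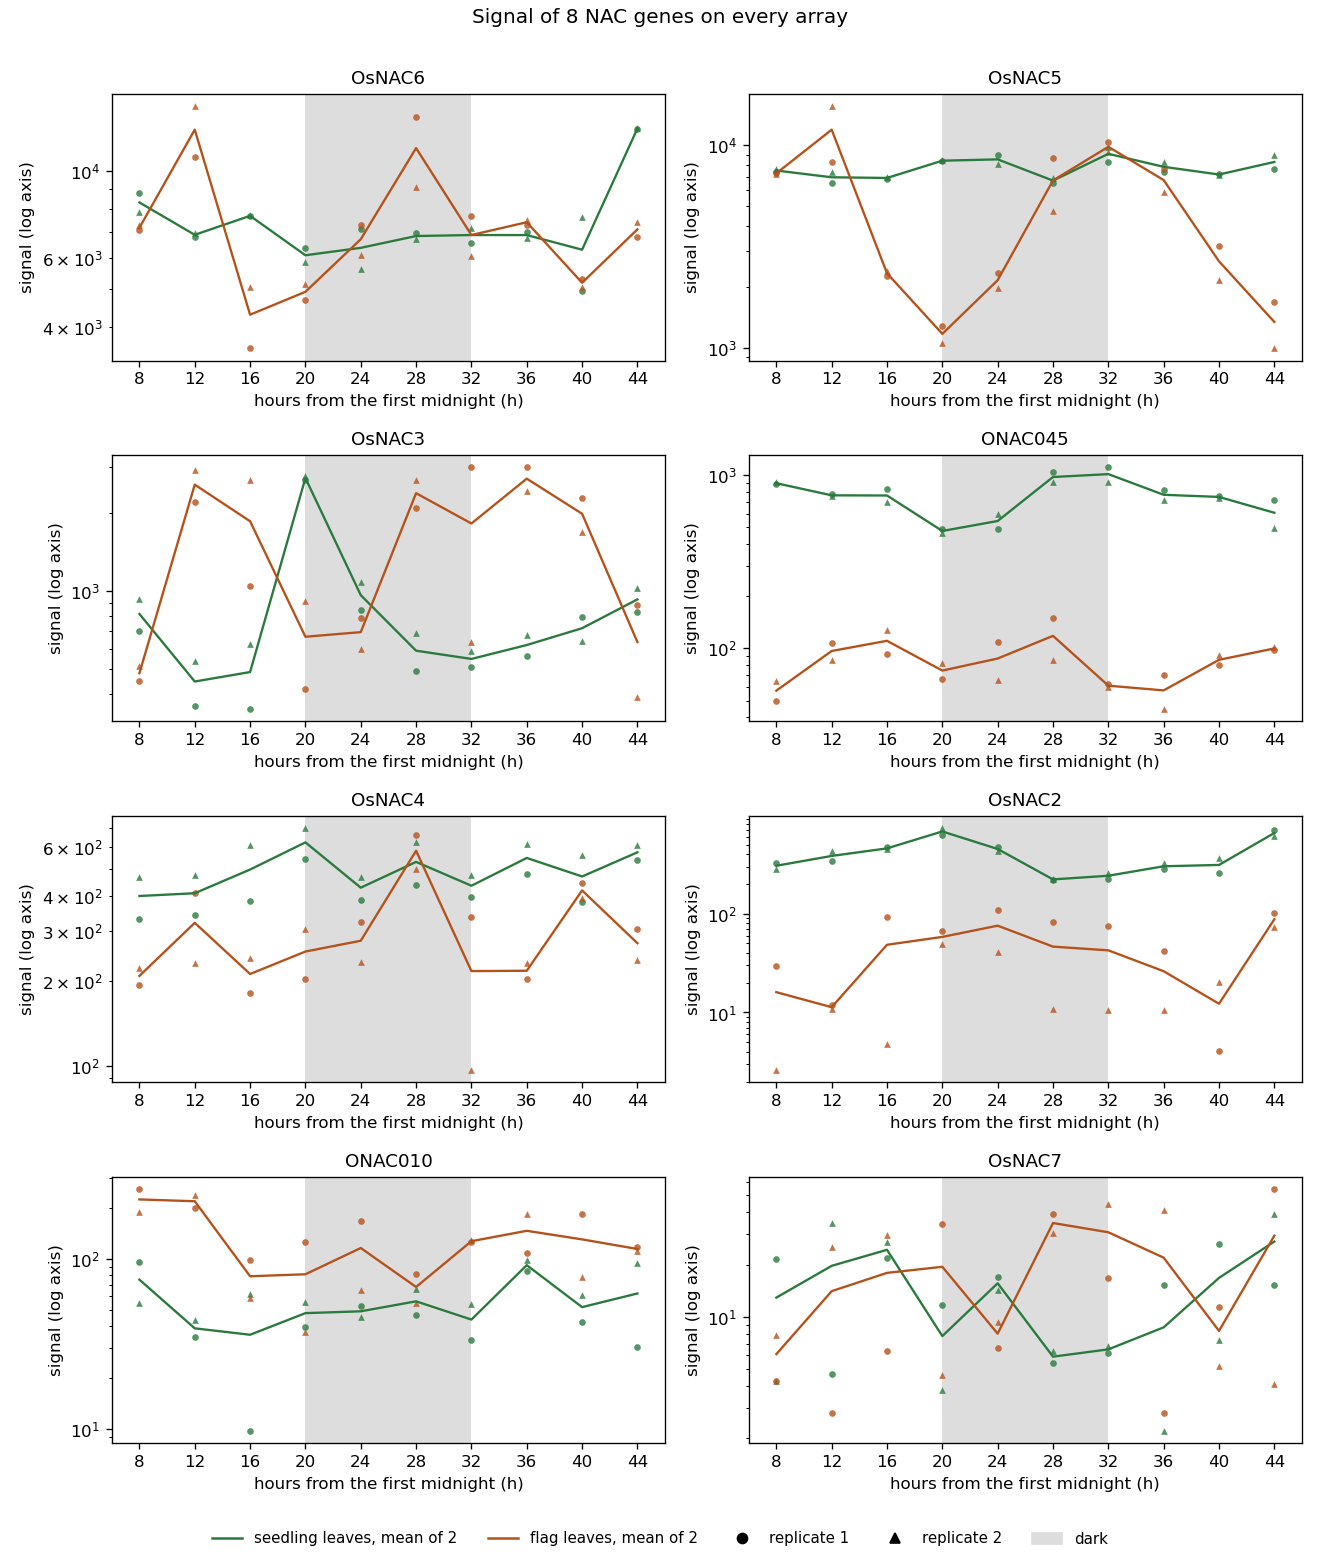
Signal of 8 NAC genes on every array, on a log axis, against hours from the first midnight; circles are replicate 1, triangles replicate 2, lines the mean of both, green seedling leaves, orange flag leaves and grey the dark period. OsNAC5 in flag leaves runs from 990.0 to 15646 while its seedling signals stay between 6497 and 9863, and OsNAC3 in seedling leaves stands apart at 20 h.

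The 2 questions asked of each gene were whether its signal followed a daily wave, and whether it changed over the time points in any shape. The first was tested by fitting a cosine with a period of 24 h to log2(signal + 32) with limma, beside a linear drift. Its p-values weigh the wave against the scatter of all arrays around the fit. That scatter holds departures of time points from the wave beside the spread between replicates. Tests between the tissues used such a fit as well. The amplitude is the height of that wave above its own mean, in log2 units. The second was limma's F test of equal means at the 10 time points, and its size is the highest minus the lowest time-point mean. All p-values were adjusted by Benjamini and Hochberg over all probe sets tested, with calls at an adjusted p under 0.05.

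In seedling leaves 3 of the 6 tested NAC genes were rhythmic, OsNAC2, ONAC045 and OsNAC3, where 42.5% of all probe sets tested were called. In flag leaves 2 of 5 were rhythmic, OsNAC5 and OsNAC6, where 69.5% of all were. No NAC gene was called rhythmic in both tissues, and ONAC045 and OsNAC2 were too dim in flag leaves to be tested there. The median amplitude of the tested NAC genes was 0.26 in seedling and 0.40 in flag leaves, beside 0.24 and 0.43 over all probe sets tested. A change over time in any shape was called for 4 of 6 NAC genes in seedling leaves, against 59.0% of all probe sets, and for 3 of 5 in flag leaves, against 64.4%. With so few genes these shares say little about the family as a whole, and what follows describes the genes one by one.

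OsNAC5 is a transcription factor induced by drought, cold, salt, abscisic acid and jasmonate, and it is also linked to leaf senescence. It had the largest amplitude of the 5 NAC genes tested in flag leaves and no detectable wave in seedling leaves. In flag leaves its signal was 7340 and 7207 in the 2 replicates at 8 h, 8280 and 15646 at 12 h, 2264 and 2397 at 16 h, and 1283 and 1055 at 20 h. It was 2331 and 1977 at 24 h, rose to 8654 and 4760 at 28 h, and reached 10422 and 9264 at 32 h. The second day repeated the fall, with 7607 and 5868 at 36 h, 3175 and 2167 at 40 h, and 1689 and 990.0 at 44 h. The gene was thus high at dawn and noon and low in mid-afternoon and at dusk on both days, with the low midnight and the late-night rise seen on the 1 night sampled, and the mean at 12 h was 10.2 times that at 20 h. The fitted amplitude was 1.50 ± 0.13 (SE, n = 20 arrays), a 7.95-fold difference between peak and trough, with a peak at 8.63 ± 0.37 h (limma, adjusted p = 7.6e-08). The call held in each of 11 other settings, with amplitudes from 1.39 to 1.56 and peaks from 8.20 to 9.02 h.

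In seedling leaves the same probe set gave 6497, 7508 and 9863 as its lowest, median and highest of 20 signals. Its lowest time-point mean was 6698 at 28 h, when flag leaves were rising, and its highest was 9087 at 32 h. The amplitude was 0.07 ± 0.06 (SE) in limma, with an adjusted p of 0.65. A change in any shape had a size of 0.43 and an adjusted p of 0.065 in limma, which became 0.016 with the replicate number as a block, 0.015 after quantile normalization and 0.046 with the larger constant, 4 times 32, before the logarithm. The rhythm differed between the tissues: the difference wave had an amplitude of 1.52 ± 0.15 (limma, adjusted p = 7.9e-09), in a comparison that called 41.8% of all probe sets. Of the 20 flag leaf arrays, 12 lay under the lowest seedling array and 2 above the highest.

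**Figure D2:**
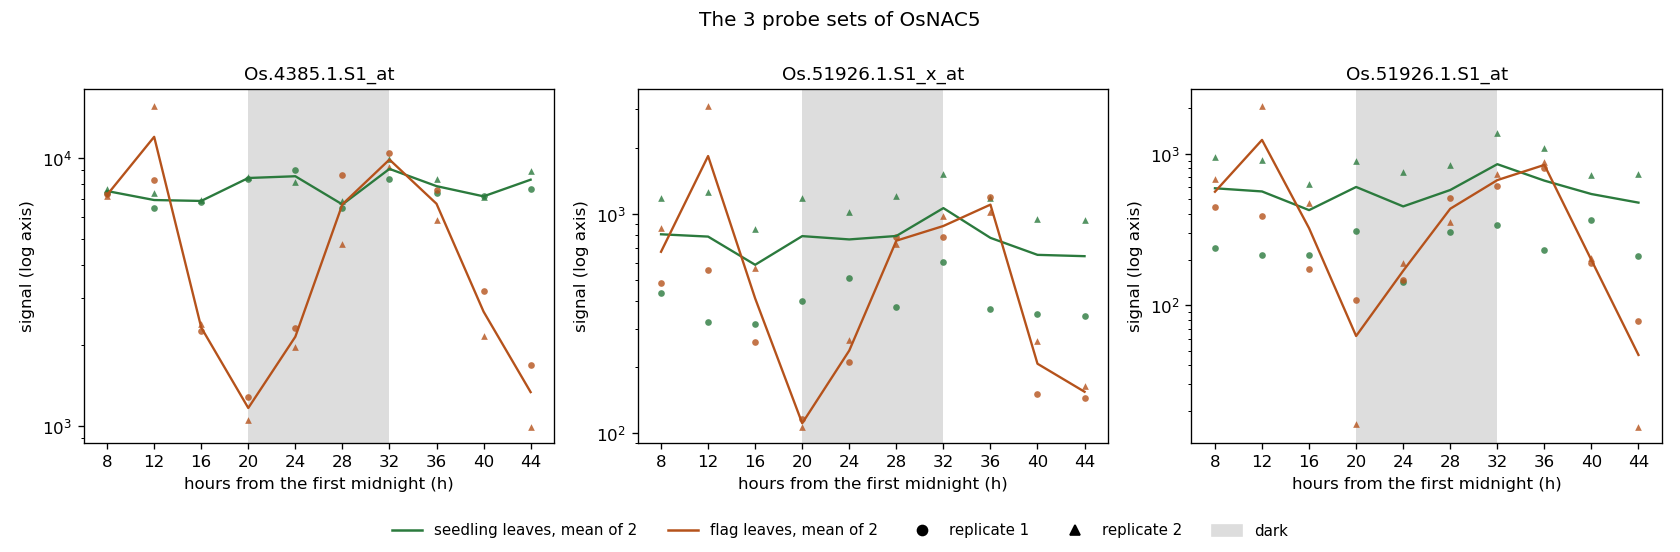
Signal of the 3 probe sets of OsNAC5 on every array, on a log axis with its own range in each panel, against hours from the first midnight; symbols and colours are those of the plot of all NAC genes. All 3 fall to their lowest flag leaf means at 20 h or 44 h, and in the 2 dimmer ones replicate 2 of seedling leaves lies above replicate 1 at each time point.

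The 2 other probe sets of OsNAC5, were built on another transcript sequence, which they share, and were dimmer, with means of 767 and 574 in seedling and 637 and 454 in flag leaves. In flag leaves their fitted waves followed the first, with amplitudes of 1.37 ± 0.21 and 1.60 ± 0.23 (SE) and peaks at 8.98 and 9.33 h. The adjusted p-values were 5.1e-05 and 2.0e-05 in limma. At 12 h, where both had their highest flag leaf mean, the replicates lay far apart. They were 552.5 and 3120.5 for the brighter and 386.1 and 2080.4 for the other. The rhythm difference between tissues of these 2 probe sets was 1.24 ± 0.33 and 1.38 ± 0.38. It was called in limma at adjusted p = 0.010 and 0.013 and was lost without the 20 h arrays, at 0.097 and 0.13. In seedling leaves replicate 2 was the higher at 10 of 10 time points for both, with means of 1131 against 403 and 892 against 256. The ratio of 3′ to 5′ actin signal also separated these replicates, while that of GAPDH did not, and the part of RNA length in the result was not tested. The brightest probe set gave 7971 and 7506. With the replicate number as a block, the brighter of the 2 was called rhythmic in seedling leaves at an adjusted p of 0.027 and changed over time at 0.018, while without the block these were 0.71 and 0.999.

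OsNAC6, also known as SNAC2, is a factor induced by drought, salt, cold and wounding that raises stress tolerance when overexpressed. Its flag leaf signals had a pair of maxima rather than 1 wave. Both replicates were high at 12 h, with 10854 and 14623, and at 28 h, with 13745 and 9120, and no array at another time point exceeded 7665. The lowest time-point mean came at 16 h, between those maxima, with 3530 and 5076. At 36 h, the second noon, the signals were 7283 and 7519, so the first noon was not matched on the second day. Over the time points the change had a size of 1.57 (limma, adjusted p = 0.00070), which held in each of 8 other settings. The cosine had an amplitude of 0.39 ± 0.14 (SE) and an adjusted p of 0.047 in limma, and that call was lost in 6 of 11 other settings, where the adjusted p ranged up to 0.52. It was 0.051 with the replicate number as a block, 0.093 with no filter on signal, 0.52 without replicate 1, 0.072 without replicate 2, 0.095 without the 40 h arrays and 0.16 without the 20 h arrays.

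In seedling leaves OsNAC6 was flat apart from the second dusk. The signals at 44 h were 12799 and 12844, and the highest array at any other time point was 8768. At the first dusk, 24 h earlier, they were 6344 and 5850, the lowest time-point mean of the series. The change over time had a size of 1.07 (limma, adjusted p = 0.0030) and became 0.44, with an adjusted p of 0.40, without the 44 h arrays. The amplitude was 0.05 ± 0.11 (SE), with an adjusted p of 0.93 in limma. The difference in rhythm between the tissues, 0.43 ± 0.18, was not called (adjusted p = 0.12). Of all probe sets tested in seedling leaves, 16.4% had their highest mean at 44 h and 26.6% had their lowest there. The other 2 probe sets of OsNAC6 stayed under 100 on every array, with means of 34.7 and 9.00 in seedling and 39.4 and 10.4 in flag leaves.

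OsNAC3 was chiefly marked in seedling leaves by the first dusk. The signals at 20 h were 2676 and 2780, and no array at any other time point exceeded 1080. They had been 350 and 624 at 16 h and were back to 849 and 1080 at 24 h. At the second dusk they were 832 and 1025, so the high value of the first did not recur. OsNAC3 and OsNAC6 therefore differed between the dusks of the seedling series in opposite directions. The change over time had a size of 2.55 (limma, adjusted p = 9.7e-05), and without the 20 h arrays it was 1.07 with an adjusted p of 0.033. The cosine amplitude was 0.68 ± 0.19 (SE), with a peak at 22.1 ± 1.08 h (limma, adjusted p = 0.018). This rhythm call was lost without the 20 h arrays, where the amplitude was 0.33 and the adjusted p 0.12, and without either replicate, at 0.14 and 0.28. Among all probe sets tested in seedling leaves, 15.7% had their highest mean at 20 h.

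In flag leaves OsNAC3 was low at dawn and dusk of the first day and high at its noon, but the replicates were further apart. The signals were 449 and 516 at 8 h and 2211 and 2934 at 12 h. They were 2098 and 2672 at 28 h, 2996 and 2431 at 36 h, and 880 and 391 at 44 h. At 12, 28, 36 and 40 h no array was under 1692, and at 8, 20, 24 and 44 h none was above 915. At 16 h and 32 h the replicates disagreed, with 1042 against 2676 and 3009 against 635. Over the time points it changed by 2.41 (limma, adjusted p = 0.012). The cosine amplitude of 0.82 ± 0.29 (SE), with a peak at 11.4 ± 1.35 h, just missed the threshold in limma (adjusted p = 0.054). It passed with a constant 4 times as large before the logarithm (0.047), after quantile normalization (0.037) and without replicate 2 (0.044).

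The rhythm of OsNAC3 differed between the tissues by a wave of amplitude 1.48 ± 0.36 (limma, adjusted p = 0.0040). The fitted peaks were 22.1 h in seedling and 11.4 h in flag leaves. This call was lost without the 20 h arrays (0.054), without replicate 1 (0.20) and without replicate 2 (0.051).

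OsNAC2 is a target of the microRNA miR164 and promotes leaf senescence and abscisic acid accumulation. In seedling leaves it rose through the day to dusk on both days. The signals were 328 and 283 at 8 h, 341 and 428 at 12 h, 470 and 446 at 16 h, and 621 and 738 at 20 h. They then fell to 472 and 432 at 24 h and to 221 and 224 at 28 h. On the second day they were 280 and 324 at 36 h, 259 and 364 at 40 h, and 701 and 611 at 44 h. The 4 dusk arrays were the highest of the 20, and no other array exceeded 472. The amplitude was 0.61 ± 0.09 (SE, n = 20 arrays), with a peak at 19.8 ± 0.60 h (limma, adjusted p = 7.7e-05). The call was lost in 1 of 11 other settings, without replicate 2, at 0.055. Its change over time had a size of 1.48 (limma, adjusted p = 3.0e-05).

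ONAC045 is induced by drought, salt, cold and abscisic acid, and overexpression raises tolerance of drought and salt. In seedling leaves it moved opposite to OsNAC2 in time, high in the second part of the night and at dawn and low around dusk. The signals were 884 and 913 at 8 h, 492 and 461 at 20 h, and 488 and 600 at 24 h. They were 1040 and 912 at 28 h, 1115 and 914 at 32 h, and 717 and 497 at 44 h. Outside 20, 24 and 44 h no array was under 697. The amplitude was 0.40 ± 0.07 (SE), with a peak at 8.43 ± 0.74 h (limma, adjusted p = 0.00063), and the call was lost in 1 of 11 other settings, without replicate 2, at 0.0996. Its change over time had a size of 1.04 (limma, adjusted p = 0.0015).

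**Figure D3:**
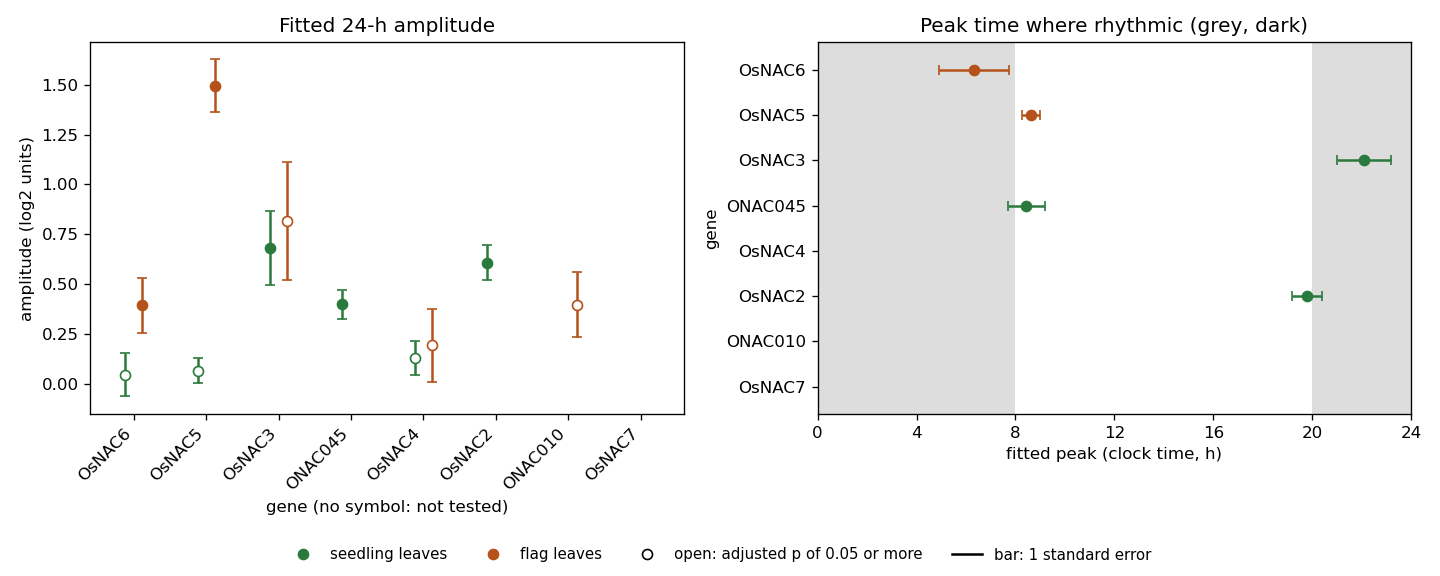
Left, amplitude of the fitted wave with a period of 24 h, in log2 units, for each NAC gene tested in a tissue, with filled symbols for an adjusted p under 0.05 and bars of 1 standard error. Right, fitted peak with its standard error, on a clock from 0 to 24 h, for the rhythmic genes, with the dark period in grey; OsNAC5 in flag leaves peaks at 8.63 h and ONAC045 in seedling leaves at 8.43 h, while OsNAC2 peaks at 19.8 h.

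OsNAC4 induces hypersensitive cell death in the defence of rice. It was not called rhythmic in either tissue, with amplitudes of 0.13 ± 0.09 and 0.19 ± 0.18 (SE) and adjusted p-values of 0.45 and 0.61 in limma. In seedling leaves its lowest, median and highest signals were 331, 475 and 699, and replicate 2 was above replicate 1 at 10 of 10 time points, with means of 559.95 against 423. The actin ratio was lower in replicate 2 and the GAPDH ratios overlapped, as given above. The part of RNA length in this difference was not tested. The change over time had a size of 0.60 in seedling leaves, with an adjusted p of 0.43 in limma, or of 0.0028 with the replicate number as a block. In flag leaves the signals at 28 h were 661.5 and 499 and no array at another time point exceeded 445, but the change over time, 1.48, was not called (limma, adjusted p = 0.077; 0.044 with the larger constant).

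ONAC010 was dim in both tissues. In flag leaves it was highest at the start, with 258 and 189 at 8 h and 198 and 238 at 12 h, and then lay between 37.3 and 184 on all later arrays. Its amplitude was 0.40 ± 0.16 (SE), with a peak at 10.6 h and an adjusted p of 0.093 in limma, or 0.049 without the 44 h arrays. The change over time had a size of 1.35, with an adjusted p of 0.095, or 0.039 with the replicate number as a block. In seedling leaves all 20 arrays were under 100, from 9.70 to 98.7.

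The study's own criteria for a diurnal probe set were recomputed as well: replicate series that correlate at 0.5 or more and, in both replicates, a p of at most 0.05 by cross-correlation with cosines (CC) or a q of at most 0.05 by ARSER. They called OsNAC2 and ONAC045 in seedling leaves, 2 of 8 genes, where 9.54% of all probe sets were called. In flag leaves they called OsNAC5, 1 of 8, where 19.0% of all probe sets were. These shares come from the recomputation, with ARSER written anew, and the paper reports larger ones in both tissues. For OsNAC2 the replicate series correlated at 0.911, and the CC p-values, each the share of random normal profiles that fitted better, were 0.024 and 0.015, with a peak at 20.0 h. For ONAC045 the correlation was 0.856 and the peak 8.20 h, and for OsNAC5 it was 0.781 and 8.80 h. The 2 dimmer probe sets of OsNAC5 were not called in flag leaves, where their replicate series correlated at 0.418 and 0.481. OsNAC3 in seedling leaves had the closest replicates of these genes, at 0.984, but no cosine fitted its single high time point, with CC p-values of 0.25 and 0.22 from the same random profiles. OsNAC6 was called in neither tissue. All 3 calls were lost with ARSER alone and with CC p-values adjusted over all probe sets, and that of ONAC045 also on log2 signals.

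The clock times 8, 12, 16 and 20 h were sampled on both days, which allowed the days to be compared. In seedling leaves OsNAC2 was lower on the second day by a log2 difference of -0.30 ± 0.08 (limma, adjusted p = 0.034), the 1 call among 6 NAC genes, where 10.1% of all probe sets were called, 5.87% lower and 4.26% higher. The call was lost with no filter on signal (0.11). It was lost with 16 and 40 h left out of the comparison, their arrays kept in the fit (0.14). From a single replicate it was lost as well, where the difference was -0.26 without replicate 1 (0.976) and -0.34 without replicate 2 (0.9999). There limma called 0 probe sets of any gene, with 763 and 779 at an unadjusted p under 0.05. With the replicate number as a block the comparison of days in seedling leaves called 4557 probe sets in place of 2462. OsNAC3 had a difference of -0.26 ± 0.13, which was not called in limma (adjusted p = 0.27). It reached -0.54 with an adjusted p of 0.030 when 16 and 40 h were left out of the comparison in the same way. In flag leaves limma called 0 of 5 NAC genes, at unadjusted p-values of 0.19 or more, where 0.732% of all probe sets were called, and OsNAC5 differed by -0.0036 ± 0.17.

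Between the tissues, the mean levels of 4 NAC genes that passed the signal filter in each could be compared without the filter choosing the outcome. OsNAC5 and OsNAC4 were lower in flag leaves, where 35.8% of all probe sets were lower and 72.0% were called in either direction. These shares are over probe sets that passed the filter in either tissue, a wider set than those that passed in both. The p-values of this comparison take 40 arrays as independent. Each tissue has only 2 replicate series, and arrays of 1 replicate number deviated together. OsNAC5 differed by a log2 flag minus seedling value of -1.05 ± 0.11 (SE, n = 40 arrays; limma, adjusted p = 6.4e-11), with means of 7739 in seedling and 5219 in flag leaves. It was not lower throughout. The flag leaf mean was above the seedling mean at 12 h (11963 and 6956) and 32 h (9843 and 9087), and barely so at 28 h (6707 and 6698). At all other time points it was under it. The dimmer probe sets of OsNAC5 gave -0.66 ± 0.24 and -0.72 ± 0.28, with adjusted p-values of 0.014 and 0.020 in limma. Without replicate 2 they gave -0.18 and 0.12, neither called, so that the second changed sign. Without the 20 h arrays these calls were lost as well, at 0.056 and 0.085, and the second was also lost after quantile normalization (0.056) and without the 44 h arrays (0.052). OsNAC4 had means of 491 and 298 and differed by -0.71 ± 0.14 (limma, adjusted p = 3.8e-05), with 14 of 20 flag leaf arrays under the lowest seedling array. Without replicate 2, the replicate that was higher in all seedling pairs, the difference was -0.39 with an adjusted p of 0.086.

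OsNAC6 had means of 7501 and 7381 and differed by -0.04 ± 0.13 (limma, adjusted p = 0.77). OsNAC3 was 885 in seedling and 1582 in flag leaves, a difference of 0.54 ± 0.25 with an adjusted p of 0.053 in limma. It was called in 5 of 11 other settings, at 0.0079 to 0.046, among them the one without the 20 h arrays, which gave 0.77.

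The remaining 3 genes entered this comparison through 1 tissue alone, and their levels are given as values. ONAC045 had a lowest, median and highest signal of 461, 756 and 1115 in seedling and of 44.5, 84.0 and 150.3 in flag leaves. OsNAC2 had 221, 352 and 738 in seedling and 2.60, 35.4 and 110.1 in flag leaves. The arrays of the tissues did not overlap for these 2 genes, as for 9.18% of all probe sets tested, or 6.63% with seedling leaves higher. In flag leaves 15 of 20 arrays of ONAC045 and 18 of 20 of OsNAC2 were under 100, where the size of a ratio depends on the background. ONAC010 went the other way, with 9.70, 53.5 and 98.7 in seedling and 37.3, 121 and 258 in flag leaves, and 13 of 20 flag leaf arrays lay above the highest seedling array.

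**Figure D4:**
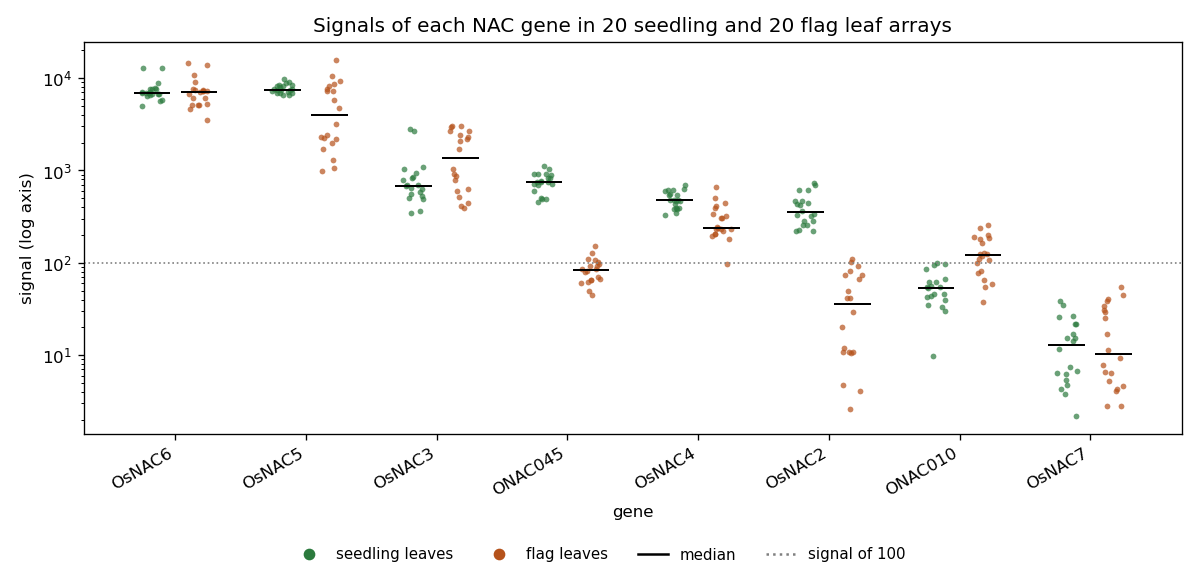
Signals of each NAC gene on 20 seedling (green) and 20 flag leaf arrays (orange), on a log axis, with the median as a black line and the signal of 100 dotted; a level can be compared between tissues within a gene, not between genes. The tissues do not overlap for ONAC045 and OsNAC2.

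Of the 4 NAC genes that passed the filter in both tissues, 2 differed in rhythm between them, OsNAC5 and OsNAC3. The 41.8% of all probe sets is a share of those that passed in either tissue, a wider set. The call of OsNAC5 held in all 11 other settings, while that of OsNAC3 did not, as given above. ONAC045, OsNAC2 and ONAC010 passed through 1 tissue alone and are not counted here.

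Since several NAC genes act in the response to abscisic acid and in leaf ageing, 4 lists of genes from these processes were read beside them. The shares of all probe sets to set beside their counts are 69.5% rhythmic in flag leaves, 42.5% rhythmic in seedling leaves and 41.8% with a rhythm difference, and for the mean level 35.8% lower and 36.2% higher in flag leaves. The shares for rhythm difference and level are over probe sets that passed the filter in either tissue. Of 15 genes of abscisic acid synthesis and breakdown 3 were measured, all rhythmic in flag leaves and 1 in seedling leaves. OsABA1, the zeaxanthin epoxidase of the synthesis pathway, had an amplitude of 3.95 in flag and 2.20 in seedling leaves, with peaks at 14.6 and 15.6 h. OsABA8OX2, an abscisic acid 8′-hydroxylase of the breakdown pathway, had 2.04 in flag leaves, with a peak at 12.5 h, and 0.22 in seedling leaves, where it was not called. OsABA8OX1, of the same family, had 1.18 with a peak at 5.66 h in flag leaves and 0.28 in seedling leaves, not called. The rhythm differed between the tissues for all 3, in a comparison that called 41.8% of all probe sets.

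Of 30 genes of abscisic acid signalling 17 were measured and 16 tested, of which 15 were rhythmic in flag leaves (69.5% of all probe sets) and 7 in seedling leaves (42.5%), and 11 differed in rhythm (41.8%). Their mean level was lower in flag leaves for 10 and higher for 2, where 35.8% and 36.2% of all probe sets were. The median amplitude was 0.60 in flag and 0.28 in seedling leaves. SAPK9, a kinase of the SnRK2 family, was rhythmic in both, with 3.36 in flag and 2.49 in seedling leaves and peaks at 23.1 and 23.0 h. OsPP108, a protein phosphatase 2C that acts in this pathway, had 2.00 in flag leaves, with a peak at 11.7 h, and 0.36 in seedling leaves, not called. SAPK4, a kinase related to SAPK9, had 0.84 with a peak at 9.98 h in flag leaves and 0.11, not called, in seedling leaves. Like OsNAC6, 10 of the 16 genes had their highest seedling mean at 44 h, as did 16.4% of all probe sets. Another 26.6% of all probe sets had their lowest mean there. The count of 10 was made after the values of OsNAC6 were seen.

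Of 16 stress proteins induced by dehydration or abscisic acid 8 were measured. In flag leaves 2 of the 4 tested were rhythmic, in seedling leaves 2 of 8, OsDREB2B and OsP5CS in each case. None of the 4 tested in both tissues differed in rhythm in limma, the lowest adjusted p being 0.055, where 41.8% of all probe sets did. RAB16A, RAB16B, RAB16D and OsDREB2A passed the filter through seedling leaves alone, with flag leaf means of 8.35 to 98.85. No difference in rhythm is read from them. OsDREB2B, a factor that binds dehydration-responsive elements, had 0.65 and 0.82 with peaks at 15.95 and 17.3 h, and OsP5CS, an enzyme of proline synthesis, had 0.25 and 0.27 with peaks at 8.22 and 10.8 h. OsLEA3, a late embryogenesis abundant protein, had 0.83 and 0.93, called in neither. In seedling leaves 6 of these 8 genes had their lowest mean at 20 h, when OsNAC3 was highest, as did 12.2% of all probe sets; this count was made after the values of OsNAC3 were seen. OsLEA3 averaged 227 at 20 h and 9555 at 16 h, and the dehydrin RAB16A 194 and 16037. In flag leaves no array of RAB16A exceeded 52.6.

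Of 14 genes of chlorophyll breakdown and leaf senescence 6 were measured and 5 tested. All 5 were rhythmic in flag leaves (69.5% of all probe sets) and 2 in seedling leaves (42.5%), and all 5 differed in rhythm (41.8%). The mean level was lower in flag leaves for 4, as for 35.8% of all probe sets, and higher for NYC1 alone. Osl2, a gene that rises in ageing rice leaves, had an amplitude of 1.01 in flag leaves with a peak at 2.33 h and of 0.13, not called, in seedling leaves. SGR, the stay-green protein of chlorophyll breakdown, had 1.68 with a peak at 11.1 h and 0.29, not called. NYC1, a chlorophyll b reductase, had 0.74 with a peak at 20.0 h and 0.31, not called. In all 4 lists the members' choice was made with earlier results of these data known, and the counts are a description.

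**Figure D5:**
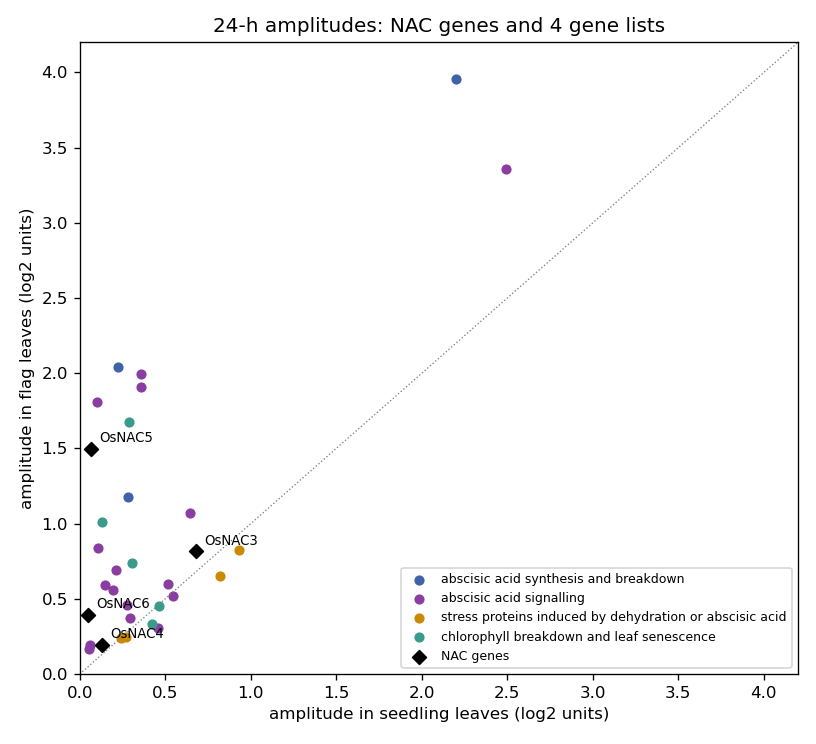
Amplitude of the fitted wave in seedling leaves (horizontal) and flag leaves (vertical), in log2 units, for the 28 list genes and 4 NAC genes tested in both tissues; the dotted line marks equal amplitudes. OsNAC5 lies high on the left, at 0.07 and 1.50, beside SGR at 0.29 and 1.68.

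The genes whose time courses were most like those of the NAC genes were sought among 1022 named genes, by the Pearson correlation of log2(signal + 32) over 20 tissue and time means centred in each tissue. The means share arrays and a daily cycle, so the coefficients are descriptions. They were not scaled within a tissue, so the tissue in which a gene changes more weighs more. For OsNAC5 that was flag leaves, with a change over time of 3.26 beside 0.43 in seedling leaves. OsNAC5 was most like OsJAZ4, a repressor of jasmonate signalling, and OsPP2C35, a protein phosphatase 2C, both at 0.903. OsNAC2 was most like NCL1 at 0.861 and the tubby-like gene OsTLP3 at 0.778, and OsNAC6 was most like OsSK2 at 0.825 and the homeobox gene OsHox24 at 0.751. ONAC010 was most like OsCIPK05, a kinase that binds calcium sensors, at 0.760 and OsPP2C15 at 0.725. OsNAC4 was most like AT9 at 0.721 and OsOPR5, of the oxophytodienoate reductase family, at 0.683. OsNAC3 was most like OsJAZ10 at 0.691 and OsDREB1B.1 at 0.673. For ONAC045 no gene exceeded OsCCC1, a cation chloride cotransporter, at 0.570, followed by the SET-domain gene OsSET33 at 0.559. OsNAC7, too dim for a test, reached 0.636 with OsSPS1 and 0.552 with OsWNK5. The profiles of OsNAC2, ONAC045 and ONAC010 also rest in part on dim values. Signals were under 100 on 18 and 15 of 20 flag leaf arrays for the first and second, and on all 20 seedling arrays for ONAC010.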

How the data were processed

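Affymetrix rice arrays of 40 samples were read as the authors deposited them: linear signal intensity per probe set, extracted with GCOS (MAS5; version and annotation build not given in the sources used here) and scaled to a target of 500. The 187 control entries were left out. In the annotation 22436 probe sets have 1 gene, 95 have several and 34663 have none. No background or further normalization was applied. Each array is 1 measurement per probe set with no read depth, so the number of arrays limits the precision.

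Groups were taken from the sample titles. Labels of the noon samples write 12:00am, and the description of every sample names seedling leaves at 8 am; hours follow the study's table of time points. Rhythm, change over time, days and tissues were tested on log2(signal + 32), for a mean of at least 100, in R 4.3.3 by limma 3.58.1, and 14 settings in all were fitted. CC used 60 cosines spaced 0.4 h apart and 100000 random profiles. ARSER was written anew (autoregressive order 6, periods of 20 to 28 h, Storey q), so its calls can differ from those of the published program. Python 3.11.15 with numpy 2.4.6, pandas 2.3.3, scipy 1.17.1 and matplotlib 3.10.9 did the rest, and the scripts were tested on simulated data.

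The text names every NAC gene, by the probe set with the highest mean over 40 arrays, the 2 most similar genes of each among 1022 with a gene name and a mean of at least 100 in both tissues, and up to 3 genes of a list with the smallest adjusted p in flag leaves. Members and lists were chosen with earlier results of these data known. Replicate numbers come from the titles. Arrays of 1 number deviated together in all 45 pairs of time points, correlating at 0.29 to 0.56 in seedlings and at 0.22 to 0.48 in flag leaves, so a block on the number was an alternative. The others were the constant (8, or 4 times as large), the filter, quantile normalization, single replicates or time points, and no linear drift.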

Additional observations from a re-analysis of the deposited data

Results flagged for a closer look

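Of the 4 NAC genes that passed the filter in both tissues, 2 differed in rhythm between seedling and flag leaves. This was limma's test of the difference itself over 40 arrays, which called 41.8% of the probe sets that passed in either tissue. OsNAC5 differed by a wave of amplitude 1.52 (adjusted p = 7.9e-09) and OsNAC3 by 1.48 (0.0040). In OsNAC5 the wave of flag leaves had no counterpart in seedling leaves, with amplitudes of 1.50 and 0.07. In OsNAC3 the seedling wave rested on 1 time point, 20 h, and its difference was not called without that time point or without either replicate. The same test gave 0.58 (0.0012) for ONAC045, which passed the filter through seedling leaves alone, with flag leaf signals mostly under 100, so that no difference between the tissues is read from it. With 2 samples at each time point, no single sample could be tested as standing apart from its group.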

How the results depend on the processing

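Of the values of single NAC genes under other settings, read at each gene's brightest probe set, 526 kept their side of the threshold, 20 gained and 28 lost a call. No value called in the main setting changed sign or moved its peak by more than 6 h. Values not called were not followed for direction, and some changed sign. The second-day difference of OsNAC3 in seedling leaves ran from -0.54 to 0.17. The cause of a change was not tested. NAC genes rhythmic in flag leaves fell from 2 to 1 with no filter, with the replicate block, without the 40 h arrays and without the 20 h arrays, a setting chosen after seeing the data, and were 1 to 2 without a replicate. Without a replicate, rhythm in seedling leaves called 0 to 2 NAC genes (main 3) and 2503 to 3339 probe sets (main 10330), and the rhythm difference 1 to 2 (main 3, counting ONAC045) and 2955 to 3826 (main 10851); the fit then has 10 arrays a tissue. The second day called 2462 probe sets in seedling leaves, but 1423 with no filter (0 NAC genes in place of 1) and 4557 with the replicate block. It called 1311 with 20 and 44 h left out of the comparison and 3940 with 16 and 40 h left out, their arrays kept in the fit. In flag leaves it called 171, and 38, 652, 300.0 and 321 in that order. From a single replicate (8 arrays, clock time and day as terms) limma called 0 probe sets and 0 NAC genes, without either replicate and in both tissues, with 763 to 779 at an unadjusted p under 0.05 in seedling and 1315 to 1356 in flag leaves. The study's criteria on seedling leaves (2 NAC genes, 5454 probe sets) gave 1 NAC gene on log2 signals, 0 and 325 with ARSER alone, 0 and 370 with adjusted CC p-values, and 9258 to 10097 probe sets from 1 replicate. In flag leaves (1 and 10860) they gave 0 and 5319, 0 and 5860, and 1 to 3 NAC genes and 15941 to 16531 probe sets. Apart from the calls given beside the results, the replicate block changed 1 other call of a gene's brightest probe set, the rhythm difference of OsNAC2 (0.13, and 0.0498 with the block), which passed the filter through seedling leaves alone. Change over time could not be tested without a replicate, which leaves 1 array for each of 10 means and no residual degrees of freedom. Signals under 100 carry little above background, which limits ONAC010, OsNAC7 and the flag leaf values of OsNAC2 and ONAC045.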
